A study of Mus musculus with 8 samples.

Results

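The genes described here are 10 heat shock chaperone genes of the mouse, Hspb1, its pseudogene Hsp25-ps1, Hspa1a, Hspa1b, Hspa8, Hsph1, Dnajb1, Hsp90aa1, Hsp90ab1 and Hspe1. They were taken from the 54146 genes of the count tables by their symbols in the GENCODE annotation, and all 10 were found. The list was chosen by measured values, since its ratios between CX-5461 and control were already known, so the ratios below are given as a description without a test.

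The data are droplet single-cell RNA-seq counts of E14 wild-type mouse embryonic stem (mES) cells, a line derived from the inner cell mass, grown for 2 days on gelatin over feeder cells, which were mouse embryonic fibroblasts, in medium with LIF and 2i. The control cells were untreated, and the other cells received CX-5461, an inhibitor of RNA polymerase I, the enzyme that transcribes ribosomal RNA. A dose and a time of CX-5461 for these libraries are not given in the sources used here. The labels list 4 samples for each condition, but the study's own account is of 1 replicate and the barcodes of a condition carry no sample, so each condition was handled as 1 library and no difference between conditions could be set against a replicate spread.

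Chaperones bind proteins that are unfolded or not yet folded and keep them from clumping. Small heat shock proteins such as Hspb1 hold unfolded proteins, Hsp70 proteins fold them in cycles driven by ATP with the help of J-domain proteins and exchange factors, and Hsp90 proteins act late on kinases, receptors and other clients. Heat and misfolded proteins raise a subset of these genes through the heat shock factor Hsf1, while other members, such as Hspa8 and Hsp90ab1, are made at high levels in unstressed cells, mES cells included.

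Cells were placed in classes from clusters computed without the 10 genes. Deep embryonic stem (ES) cells, of ES-like clusters holding 5000 or more UMIs (unique molecular identifiers, each marking 1 captured RNA molecule), of which no more than 0.1 fell on mitochondrial genes, numbered 2327 in the control and 3927 in the CX-5461 library, with a median of 15951 and 14745 UMIs per cell. Control deep ES cells came from clusters 0 and 2 and CX-5461 deep ES cells from clusters 6, 7, 8 and 9, so that cluster and library coincide, and Krt15, a keratin gene, was among the 10 leading genes of clusters 7 and 9. The summed level of 14 ES markers was 8337 UMIs per 1000000 (CPM) in the control and 8940 in the CX-5461 deep ES cells. Cells of 1 fibroblast-like cluster, called feeders here, numbered 216 and 162, and all 16 fibroblast markers were detected in them at a summed 3751 and 6338 CPM. All 14 ES markers were detected in the feeders too, at a summed 554 CPM in the control and 435 CPM in CX-5461. The part of ES cell RNA in the feeder levels below was not tested. High-mitochondrial cells, with a mitochondrial share over 0.1 and up to 0.2, are a range rather than a cell type. They numbered 769 and 484, at a median of 2049 and 5718 UMIs; 767 of the 769 control cells lay in cluster 3, which kept no name, and 465 of the 484 CX-5461 cells in cluster 8. Fibroblast markers stood at 16.8 CPM in control and 34.6 CPM in CX-5461 deep ES cells, which is 0.447% and 0.546% of their level in the feeders of the same library. The summed level of 10 keratinocyte markers was 24.0 and 205 CPM in deep ES cells, with 6 and 9 of them detected, and that of 10 macrophage markers 37.8 and 78.1 CPM, with 8 and 7 detected; the part of these in the ratios below was not tested. Intervals below are exact at 95% and cover counting error only.

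The ratios of the members spread widely around a median near 1. In deep ES cells 9 of the 10 genes reached 200 UMIs over both libraries, and Hspa1b did not. Hspa1a reached 200 only through CX-5461, with 36 UMIs in the control and 461 in CX-5461. Of these 9, 2 were at least 2-fold higher in CX-5461, Hsp25-ps1 and Hspa1a, where 19.6% of 11565 genes with as many UMIs were, and 0 were at least 2-fold lower, against 3.42% of all genes. At 1.5-fold, 4 were higher and 1 was lower, beside 36.2% and 7.45% of all genes; the added genes are Hspb1, Dnajb1 and, lower, Hspa8. The median log2 ratio of the 9 members was 0.01 and that of all genes 0.36, and 4 of the 9 exceeded it. In high-mitochondrial cells 2 of 7 members were at least 2-fold higher and 0 lower, beside 17.7% and 8.52% of all genes, with a median log2 ratio of -0.14 against 0.36. The 2 higher ones, Hsp25-ps1 (33 UMIs in the control and 276 in CX-5461) and Dnajb1 (34 and 193), reached 200 mainly through CX-5461. In feeders 1 of 7 was at least 2-fold higher and 1 lower, beside 6.74% and 4.67% of all genes, with a median of -0.08 against 0.16.

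The values are shares of all UMIs of the cells, and on that scale the median of all genes lay off 0. Why it did was not tested. A TMM factor scales to the bulk of genes. It moved every log2 ratio by -0.40 in deep ES cells, -0.40 in high-mitochondrial cells and -0.16 in feeders. Relative to the median of all genes, the log2 ratios in deep ES cells were 2.77 for Hspa1a, 2.44 for Hsp25-ps1, 0.53 for Dnajb1, 0.26 for Hspb1, -0.35 for Hspe1, -0.36 for Hsp90aa1, -0.41 for Hsph1, -0.61 for Hsp90ab1 and -1.20 for Hspa8. The sign of Hspe1 therefore depends on the scaling, as does that of Hspa1b.

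**Figure D1:**
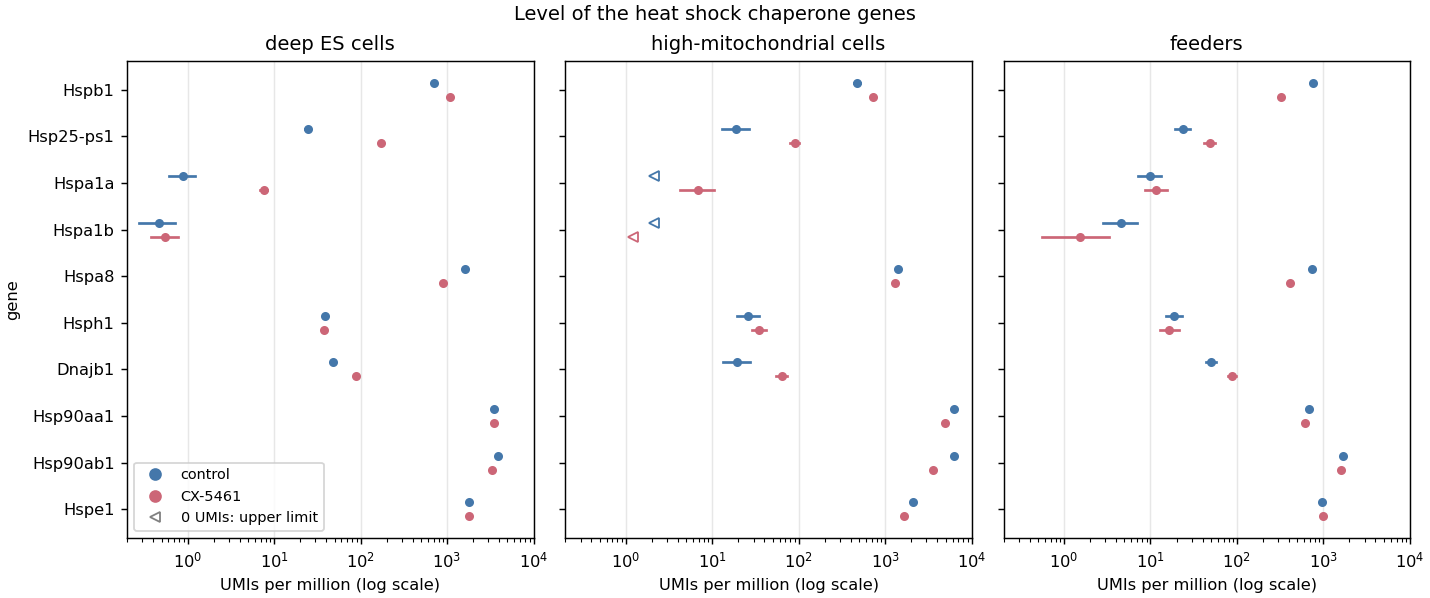
Level of each gene in CPM on a log axis, in deep ES cells, high-mitochondrial cells and feeders; points are the control (blue) and CX-5461 (red) libraries, lines are exact 95% intervals for counting error, and open triangles are upper limits where a gene had 0 UMIs. In deep ES cells Hsp25-ps1 and Hspa1a lie far apart between the libraries, and the Hsp90 genes and Hspe1 nearly coincide.

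**Figure D2:**
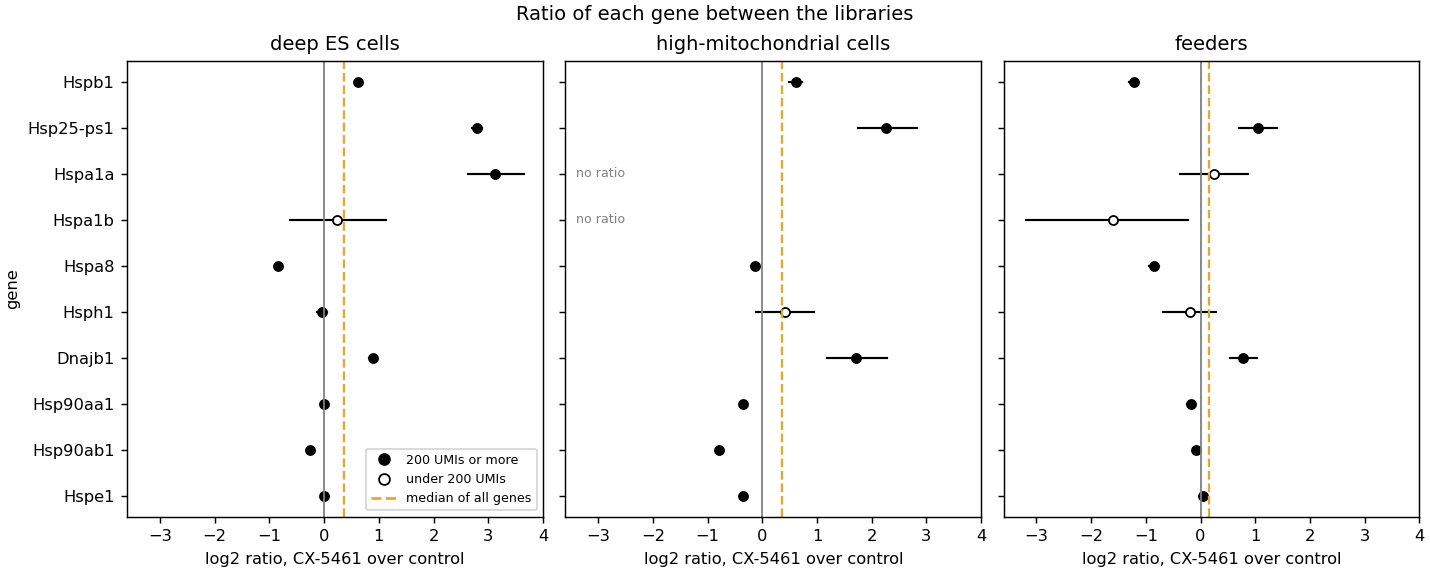
Log2 ratio of CX-5461 over control for each gene in the 3 cell classes, with exact 95% intervals for counting error; open points have under 200 UMIs over both libraries, and the dashed line is the median of all genes (0.36, 0.36 and 0.16). Hspb1 lies to the right of 0 in deep ES and high-mitochondrial cells and to the left in feeders, while Hsp25-ps1 and Dnajb1 lie to the right in each.

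Hspb1 (ENSMUSG00000004951.10, chr5:135887919-135889563, plus strand, GRCm38) encodes Hsp25, a small heat shock protein that holds unfolded proteins and is known as a stress-induced chaperone with a role at the actin cytoskeleton. Its level in deep ES cells was 699 CPM in the control and 1075 CPM in the CX-5461 library, a ratio of 1.54 (1.52 to 1.56). In high-mitochondrial cells it was 472 and 720 CPM, a ratio of 1.53 (1.41 to 1.66). Feeders went the other way, with 753 CPM in the control and 324 CPM in CX-5461, which is 2.32-fold lower. The summed macrophage markers in feeders were at 251 CPM in the control, with 10 of 10 detected, and 18.6 CPM in CX-5461, with 6 detected, and their part in the feeder ratios was not tested. Within the control library Hspb1 was 1.08-fold (1.04 to 1.12) higher in feeders than in deep ES cells, and within the CX-5461 library 3.32-fold higher in deep ES cells than in feeders. Without the deep ES cells that held a fibroblast marker UMI its log2 ratio was 0.65, and without clusters 7 and 9 it was 0.72, beside 0.62 in all deep ES cells. In the feeders 1 control cell held 131 of the 3426 Hspb1 UMIs. Nearly every deep ES cell held an Hspb1 UMI, 99.96% of control and 99.3% of CX-5461 cells.

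Hsp25-ps1 (ENSMUSG00000078915.2, chr13:45078498-45079127, minus strand) is a processed pseudogene, a copy of the spliced Hspb1 transcript inserted elsewhere in the genome. Its 1 annotated exon of 630 bases matched the whole Hspb1 coding sequence at 626 bases (99.4% identity) and the annotation holds none of the 133 bases that follow the stop codon in the transcript Hspb1-201. Counted from 1 at the start codon, with the Hspb1 base first, the substitutions are C6T, G559A, T561C and T609C. The last 90 coding bases hold 3 of them and show how little separates reads of the gene from reads of its copy. They lie in exon 3 of 3 of Hspb1 (chr5:135889341-135889430) and at chr13:45078498-45078587 in the pseudogene, and the differing bases are in capitals.
Hspb1: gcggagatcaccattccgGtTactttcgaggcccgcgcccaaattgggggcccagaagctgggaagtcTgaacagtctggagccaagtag
Hsp25-ps1: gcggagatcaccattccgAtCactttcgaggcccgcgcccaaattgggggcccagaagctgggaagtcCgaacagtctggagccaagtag

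The pseudogene differed more between the libraries than its parent. Hsp25-ps1 stood at 24.6 CPM in control and 171 CPM in CX-5461 deep ES cells, a ratio of 6.95 (6.52 to 7.43). It was 4.81-fold higher in high-mitochondrial cells (18.8 and 90.5 CPM, interval 3.34 to 7.12) and 2.07-fold higher in feeders (23.5 and 48.7 CPM, interval 1.63 to 2.65). In feeders the parent was therefore lower and the pseudogene higher in CX-5461. Of deep ES cells, 34.0% in the control and 85.6% in CX-5461 held an Hsp25-ps1 UMI; with every cell thinned to 3100 UMIs the shares were 7.43% and 40.0%.

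The share of the pseudogene in the pair differed between the libraries in each of the 3 cell classes. Hsp25-ps1 made up 3.39% (3.19 to 3.61) of the pair's UMIs in control deep ES cells, 3.84% (2.66 to 5.35) in control high-mitochondrial cells and 3.03% (2.49 to 3.65) in control feeders. In the CX-5461 library the shares were 13.7% (13.5 to 14.0), 11.2% (9.95 to 12.5) and 13.1% (11.4 to 14.9). No CX-5461 interval of these classes reached a control one. Within a library, deep ES cells and feeders had intervals that overlapped, while in CX-5461 the high-mitochondrial interval lay below that of deep ES cells. 2C-like cells, which lie outside these classes, had 4.21% (4 of 95 UMIs) in the control and 13.2% (135 of 1021) in CX-5461. The remaining kept cells had 3.71% (44 of 1186) in the control and 4.44% (6 of 135 UMIs; 1.65 to 9.42) in CX-5461, below the other CX-5461 cells. Summed, the pair stood at 724 and 1246 CPM in deep ES cells, a ratio of 1.72 (1.70 to 1.75), and at 776 and 373 CPM in feeders, a ratio of 0.481 (0.452 to 0.511). The tables mark counts shared between genes in a separate column, and that column held 0 such counts for Hspb1 and 0 for Hsp25-ps1 in both libraries, beside 34340 and 70206 unshared counts of Hspb1. How the authors' counting divided reads between the pair was not tested.

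**Figure D3:**
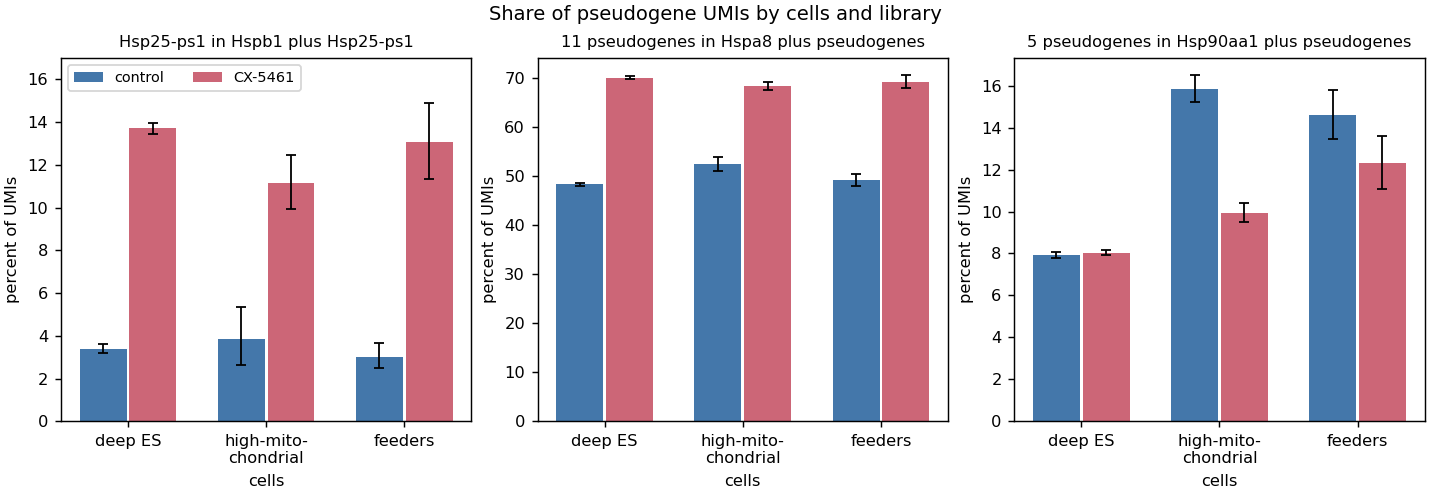
Share of UMIs, in percent, assigned to pseudogenes among those of a gene and its pseudogenes, for Hspb1, Hspa8 and Hsp90aa1; bars are the control (blue) and CX-5461 (red) libraries in the 3 cell classes and error bars are exact 95% intervals for counting error. For Hspb1 and Hspa8 the CX-5461 bars stand above the control bars in every class, and for Hsp90aa1 they do not.

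Hspa8 (ENSMUSG00000015656.17, chr9:40800984-40810087, plus strand) encodes Hsc70, the Hsp70 protein that unstressed cells make constantly and that folds new proteins and uncoats clathrin vesicles. It was the member farthest below 1 in deep ES cells, at 1599 CPM in the control and 893 CPM in CX-5461, 1.79-fold lower. The feeders gave nearly the same ratio, 1.81-fold lower, from 733 to 406 CPM. High-mitochondrial cells had 1421 and 1288 CPM, a ratio of 0.907 (0.862 to 0.954).

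The value of Hspa8 changes once its pseudogenes are counted with it. A search of annotated pseudogene transcripts found 11 that match Hspa8 at 90% identity or more over 200 bases or more. They held 48.3% of the family's UMIs in control and 70.0% in CX-5461 deep ES cells, nearly all in Gm8355, Gm15459 and Gm6210, whose identities to Hspa8 were 98.7%, 99.7% and 98.6%. Gm8355 alone stood at 1368 and 1897 CPM in deep ES cells, above Hspa8 itself in CX-5461, and at 623 and 812 CPM in feeders. Summed, Hspa8 and its pseudogenes stood at 3091 CPM in the control and 2978 CPM in CX-5461 deep ES cells, a ratio of 0.964 (0.957 to 0.971) in place of 0.558 for Hspa8 alone. The summed ratio was 0.916 (0.883 to 0.951) in feeders and 1.36 (1.32 to 1.41) in high-mitochondrial cells, where it was on the other side of 1 from that of Hspa8 alone. Over the 708 processed pseudogenes with 200 UMIs or more in deep ES cells the median log2 ratio was 0.30, against 0.36 for all genes, and 25.1% were at least 2-fold higher and 12.2% lower. Over 284 of them in high-mitochondrial cells the median was -0.54, against 0.36, with 10.9% higher and 31.3% lower, and over 253 in feeders it was -0.05, against 0.16. The share of pseudogene UMIs in the Hspa8 family was higher in CX-5461 in the other classes too, at 52.4% and 49.1% in control high-mitochondrial cells and feeders and at 68.4% and 69.2% in those of CX-5461.

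Hspa1a (ENSMUSG00000091971.3, chr17:34969190-34972156, minus strand) and Hspa1b (ENSMUSG00000090877.3, chr17:34956436-34959238, minus strand) are neighbouring genes for the Hsp70 protein that heat and other protein stress induce. Their coding sequences were 99.5% identical, with 1919 of 1929 aligned positions the same. Hspa1a was among the scarcest members, with 36 UMIs in control and 461 UMIs in CX-5461 deep ES cells, or 0.874 and 7.62 CPM, a ratio of 8.72 (6.21 to 12.6). It was found in 1.46% (1.01 to 2.04) of control and 10.4% (9.45 to 11.4) of CX-5461 deep ES cells, and in 0.301% and 2.57% once each cell was thinned to 3100 UMIs. No cell held more than 3 of its UMIs. Clusters 6, 7 and 9 of the CX-5461 deep ES cells had 5.82, 11.9 and 21.4 CPM of Hspa1a, and control clusters 0 and 2 had 0.886 and 0.857 CPM.

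In feeders Hspa1a did not differ beyond counting error, at 9.89 CPM in the control and 11.7 CPM in CX-5461, a ratio of 1.19 (0.769 to 1.83). Its level in control deep ES cells was 8.84% of that in control feeders, and in CX-5461 65.0%, while fibroblast markers stood below 1% in both. Of Hspa1a, 0 UMIs were found over the 769 high-mitochondrial cells of the control and 21 over those of CX-5461. The exact upper limit of the control share is 0.479%, which limits cells with a UMI at a median of 2049 UMIs and not cells that express the gene. The exact lower limit of the ratio is 2.99. Hspa1b had 19 UMIs in control and 33 in CX-5461 deep ES cells, a ratio of 1.18 (0.653 to 2.20), and 21 and 6 UMIs in feeders, a ratio of 0.331 (0.109 to 0.849). Hspa1b made up 34.5% (22.2 to 48.6) of the Hspa1a and Hspa1b UMIs in control deep ES cells and 31.8% (20.9 to 44.4) in control feeders. In CX-5461 it made up 6.68% (4.64 to 9.25) and 11.5% (4.35 to 23.4). The counts marked as shared were 2 in the control and 7 in CX-5461 for each of the pair. Summed, the pair gave a ratio of 6.12 (4.62 to 8.24) in deep ES cells and 0.914 (0.623 to 1.33) in feeders.

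Dnajb1 (ENSMUSG00000005483.10, chr8:83608193-83612653, plus strand) encodes Hsp40, the J-domain protein that hands clients to Hsp70 and starts its ATP cycle. It was higher in CX-5461 in each class, at 47.5 and 88.1 CPM in deep ES cells (ratio 1.86, 1.76 to 1.96), 19.4 and 63.3 CPM in high-mitochondrial cells (3.26, 2.26 to 4.85) and 50.8 and 87.2 CPM in feeders (1.72, 1.45 to 2.04). In feeders 1 CX-5461 cell held 25 of the 342 UMIs. Deep ES cells and feeders of 1 library had like levels, with a ratio of feeders over deep ES cells of 1.07 (0.929 to 1.23) in the control and 0.990 (0.884 to 1.10) in CX-5461. The share of deep ES cells with a UMI was 54.4% in the control and 70.1% in CX-5461, and 14.4% and 23.5% after thinning.

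Hsph1 (ENSMUSG00000029657.15, chr5:149614287-149636376, minus strand) encodes Hsp105, which releases ADP from Hsp70 as an exchange factor and is also known as heat-inducible. It had 38.9 and 37.7 CPM in deep ES cells, a ratio of 0.969 (0.908 to 1.03). In high-mitochondrial cells it had 46 and 106 UMIs (ratio 1.33, 0.929 to 1.92) and in feeders 86 and 65 (0.877, 0.625 to 1.22), so that no class gave a difference beyond counting error on the scale of all UMIs. Within CX-5461 deep ES cells, Hsph1 was at 43.0 CPM in cluster 6, 24.6 CPM in cluster 7 and 7.92 CPM (10 UMIs) in cluster 9, whereas Dnajb1 was at 84.4, 96.5 and 120 CPM.

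The Hsp90 genes were the most abundant members in ES cells. Hsp90aa1 (ENSMUSG00000021270.13, chr12:110690605-110702728, minus strand), for the form that stress can raise, had 3522 and 3509 CPM in deep ES cells, a ratio of 0.996 (0.990 to 1.00). Hsp90ab1 (ENSMUSG00000023944.14, chr17:45567775-45573271, minus strand), for the constitutive form, had 3893 and 3267 CPM, a ratio of 0.839 (0.834 to 0.845). In feeders both were far lower, Hsp90aa1 at 686 and 609 CPM and Hsp90ab1 at 1703 and 1610 CPM, so that deep ES cells exceeded feeders 5.13-fold and 5.76-fold for Hsp90aa1 in the control and CX-5461 libraries. High-mitochondrial cells had more of both than deep ES cells of their library. Hsp90aa1 was at 6319 CPM there in the control and 4929 CPM in CX-5461 (ratio 0.780, 0.761 to 0.800), and Hsp90ab1 at 6161 and 3539 CPM (0.575, 0.559 to 0.590). The 5 pseudogenes of Hsp90aa1 held 7.94% and 8.04% of its family's UMIs in deep ES cells, 15.9% and 9.93% in high-mitochondrial cells and 14.6% and 12.3% in feeders. With them, the ratio in deep ES cells was 0.997.

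Hspe1 (ENSMUSG00000073676.4, chr1:55088132-55091307, plus strand) encodes Hsp10, the lid of the mitochondrial chaperonin that it forms with Hspd1. It was at 1793 and 1801 CPM in deep ES cells, a ratio of 1.00 (0.995 to 1.01), and at 956 and 989 CPM in feeders, a ratio of 1.03 (0.991 to 1.08). In high-mitochondrial cells it was at 2113 and 1657 CPM, 1.28-fold lower in CX-5461.

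2C-like cells, named for genes of the 2-cell embryo, were few, 11 in the control and 85 in CX-5461, and beyond the pair's shares given above only CX-5461 values are given. Their levels there were 778 CPM for Hspb1, 119 CPM for Hsp25-ps1, 825 CPM for Hspa8, 79.9 CPM for Dnajb1, 35.1 CPM for Hsph1, 3213 CPM for Hsp90aa1, 3103 CPM for Hsp90ab1 and 1440 CPM for Hspe1. Hspb1 was thus at 0.724 (0.677 to 0.773) and Hspe1 at 0.800 (0.761 to 0.840) of their level in CX-5461 deep ES cells, while the interval for Dnajb1, 0.730 to 1.12, held 1. Hspa1a had 7 UMIs in these cells and Hspa1b 0. The other kept cells, 444 and 39, were mostly shallow, and their Hspb1 was at 609 and 875 CPM, their Hspa8 at 1510 and 998 CPM and their Hsp90aa1 at 5605 and 3027 CPM.

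**Figure D4:**
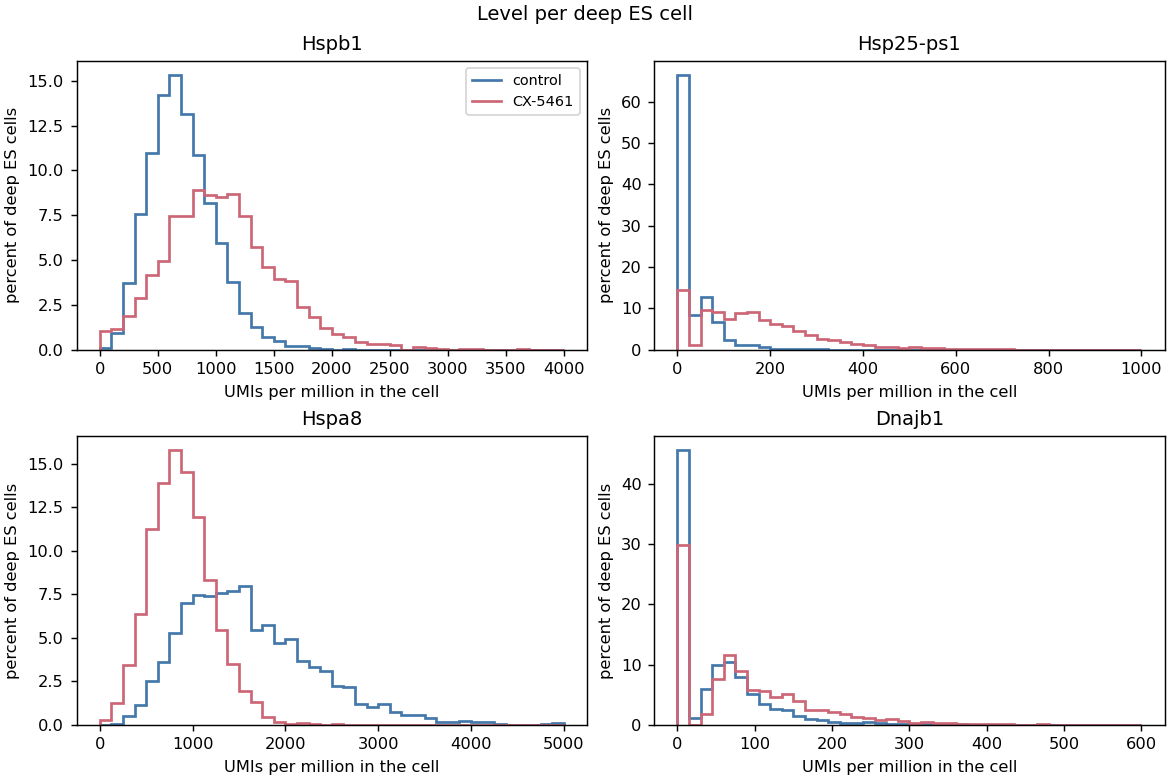
Distribution of the level per deep ES cell, in CPM of the cell, for Hspb1, Hsp25-ps1, Hspa8 and Dnajb1; lines give the percentage of the 2327 control (blue) and 3927 CX-5461 (red) cells in each bin. The Hspb1 distribution is wider in CX-5461 and reaches farther up, with a 5th percentile of 308 and 338 CPM and a 95th of 1202 and 1867 CPM, the Hspa8 distribution lies lower, and cells at 0 make up the first bin of Hsp25-ps1 and Dnajb1.

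The lower end of the Hspb1 distribution differed less between the libraries than the upper end. The median Hspb1 level of a cell was 681 CPM in the control, with 5th and 95th percentiles of 308 and 1202 CPM, and 1015 CPM in CX-5461, with 338 and 1867 CPM; 34.0% of CX-5461 cells lay above the control's 95th percentile and 4.33% below its 5th. Cells without an Hspb1 UMI numbered 1 in the control and 26 in CX-5461. For Hspa8, the median was 1497 CPM in the control and 857 CPM in CX-5461, and 25.6% of CX-5461 cells lay below the control's 5th percentile. For Hsp25-ps1, 64.8% of CX-5461 cells lay above the control's 95th percentile and for Dnajb1 18.0%. Among CX-5461 deep ES cells, cluster 6 had 1155 CPM of Hspb1, cluster 7 had 909 CPM and cluster 9, with 103 cells, 303 CPM, below the 701 and 698 CPM of control clusters 0 and 2. Hspa8 was at 926, 828 and 459 CPM in clusters 6, 7 and 9, and at 1506 and 1741 CPM in clusters 0 and 2.

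From cell to cell the members went together only weakly. Across deep ES cells thinned to 3100 UMIs, Pearson's r of Hsp90aa1 and Hsp90ab1 was 0.23 in the control and 0.14 in CX-5461, that of Hspb1 and Hsp25-ps1 0.06 and 0.15, and that of Hspa8 and Hsp90ab1 0.10 and 0.09. These are descriptions over 2327 and 3927 cells that share a library, and all values rest on sparse counts. Of 7933 genes with at least 200 UMIs in each library, those most like the summed members were Gm8355 (mean r of 0.24 over the libraries), Npm1 (0.19), Tuba1b (0.18), Gstp2 (0.16) and Tubb5 (0.15).

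Promoters of 6 members stood in the RefSeq table used (GRCm38.p6); those of Hsp25-ps1, Hspa8, Hsp90aa1 and Hsp90ab1 did not. Heat shock factors bind runs of the unit GAA and its complement TTC in turn, so the 250 bases before each start were searched for GAANNTTC and TTCNNGAA, where N is any base; each reads the same on both strands, and the matches of the pair can overlap. A match was found for 5 of the 6 members, all but Dnajb1, and in 12.8% of 32851 promoters in all. The 120 bases before the start are shown for Hspb1 (chr5:135887799-135887918, plus strand), Hspa1a (chr17:34972157-34972276, minus strand) and Hspe1 (chr1:55088028-55088147, plus strand), a pair of genes whose levels were higher in CX-5461 deep ES cells and 1 whose level was not, with matches in capitals.
Hspb1: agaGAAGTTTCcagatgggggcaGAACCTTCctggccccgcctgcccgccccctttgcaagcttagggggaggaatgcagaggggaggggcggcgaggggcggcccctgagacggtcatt
Hspa1a: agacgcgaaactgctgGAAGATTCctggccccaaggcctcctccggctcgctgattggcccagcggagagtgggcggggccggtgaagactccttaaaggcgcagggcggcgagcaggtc
Hspe1: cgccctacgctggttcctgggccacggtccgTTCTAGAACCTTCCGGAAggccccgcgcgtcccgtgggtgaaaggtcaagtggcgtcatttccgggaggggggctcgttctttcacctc
Hspb1 held 2 separate matches and Hspa1a 1, while Hspe1 held overlapping matches in 1 unbroken run. In that run a further unit follows a pair at the same spacing, once starting with GAA and once starting with TTC. The form starting with GAA was found in 81 of the 32851 promoters, that starting with TTC in 80, and either form in 153 (0.466%). The Hspa1b promoter was the same as that of Hspa1a at 247 of 250 positions and held the same match. A match is a stretch of letters and no measure of binding.

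The rest of the chaperone network was taken from 7 lists. Of 31 cochaperones and other genes of the Hsf1 network, 28 reached 200 UMIs in deep ES cells, 6 of them at least 2-fold higher, near the 19.6% of all genes, and 1 lower, beside 3.42%, with a median log2 ratio of 0.24 against 0.36 for all genes. The higher ones included Cryab, a small heat shock protein best known from lens and muscle, at 8.98 and 145 CPM (ratio 16.2, 14.6 to 18.0), Ubb, a polyubiquitin gene, at 406 and 1168 CPM (2.88), Hspa2, a testis Hsp70 (2.99), Dedd2 (2.61) and Hspb8, which works with Bag3 in clearing aggregates (2.60). The lower one was Ptges3, the Hsp90 cochaperone p23, at 429 and 190 CPM, 2.27-fold lower, and in feeders it was at 184 and 83.6 CPM. Ubb was also higher in feeders, at 635 and 1438 CPM. Hspa2 reached 200 UMIs in deep ES cells only through CX-5461, with 136 in the control and 598 in CX-5461.

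Of 9 other genes listed as small heat shock proteins, 4 reached 200 UMIs in deep ES cells. All 4 were at least 2-fold higher in CX-5461, beside 19.6% of all genes. They were Cryab, Hspb2 (1.75 and 22.6 CPM), Hspb11 (5.85 and 23.8 CPM) and Hspb8 (24.1 and 62.8 CPM), with a median log2 ratio of 2.86. Cryab and Hspb8 are also among the higher genes of the cochaperone list. Hspb2 reached 200 UMIs only through CX-5461, with 72 in the control and 1367 in CX-5461. The other 5 genes stayed below 200, among them Hspb6 with 58 and 72 UMIs (ratio 0.845) and Hspb7 with 11 and 64 (3.96). In feeders 3 genes reached 200 UMIs, with a median log2 ratio of -0.17. Cryab in feeders was itself lower in CX-5461, at 1401 CPM in the control and 803 CPM in CX-5461. Its level in deep ES cells was 0.641% of that in feeders in the control, where the fibroblast markers stood at 0.447%. In CX-5461 it was 18.1%, where they stood at 0.546%. The control level under the ratio of 16.2 was thus close to that of the fibroblast markers relative to feeders. Of the heat shock factor list, Hsf2, a factor of early development, was at 14.4 and 5.59 CPM (2.58-fold lower) and Hsbp1, a protein that binds heat shock factors, at 137 and 276 CPM (2.02); Hsf1 is the third gene that reached 200 UMIs there, with a log2 ratio of -0.04.

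The subunits of the cytosolic chaperonin CCT and of prefoldin, which fold actin and tubulin, all 14 above 200 UMIs, had log2 ratios between -0.33 and 0.39 and 0 passed 2-fold in either direction; Cct7 was at 413 and 349 CPM and Pfdn1 at 375 and 387 CPM. Of 8 mitochondrial chaperones and proteases 2 were at least 2-fold higher, Dnaja3 (20.0 and 54.3 CPM) and Clpp (129 and 280 CPM), near the 19.6% of all genes, with a median log2 ratio of 0.58. Of 12 chaperones of the endoplasmic reticulum 0 passed 2-fold, with a median of 0.43, and Calr and Hsp90b1 had ratios of 1.26 and 1.51. Of 15 immediate early genes 7 were at least 2-fold higher and 0 lower, beside 19.6% and 3.42% of all genes, among them Btg2 (15.8 and 167 CPM), Jun (3.16 and 25.2 CPM), Ier5 (0.656 and 5.03 CPM), Atf3 (1.77 and 13.4 CPM) and Klf6 (12.8 and 36.8 CPM). Jun (130 UMIs in the control and 1526 in CX-5461), Ier5 (27 and 304) and Atf3 (73 and 812) reached 200 UMIs only through CX-5461. In feeders 0 of the 15 were at least 2-fold higher and 1 was lower, beside 6.74% and 4.67% of all genes there. The lower one was Dusp1, at 151 and 69.3 CPM. In high-mitochondrial cells 12 of 19 cochaperone and Hsf1 network genes exceeded the all-gene median, with a median log2 ratio of 0.53, as did 10 of the 14 CCT and prefoldin genes, with a median of 0.43; with 1 library per condition, whether these lists differ from other genes cannot be tested.

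**Figure D5:**
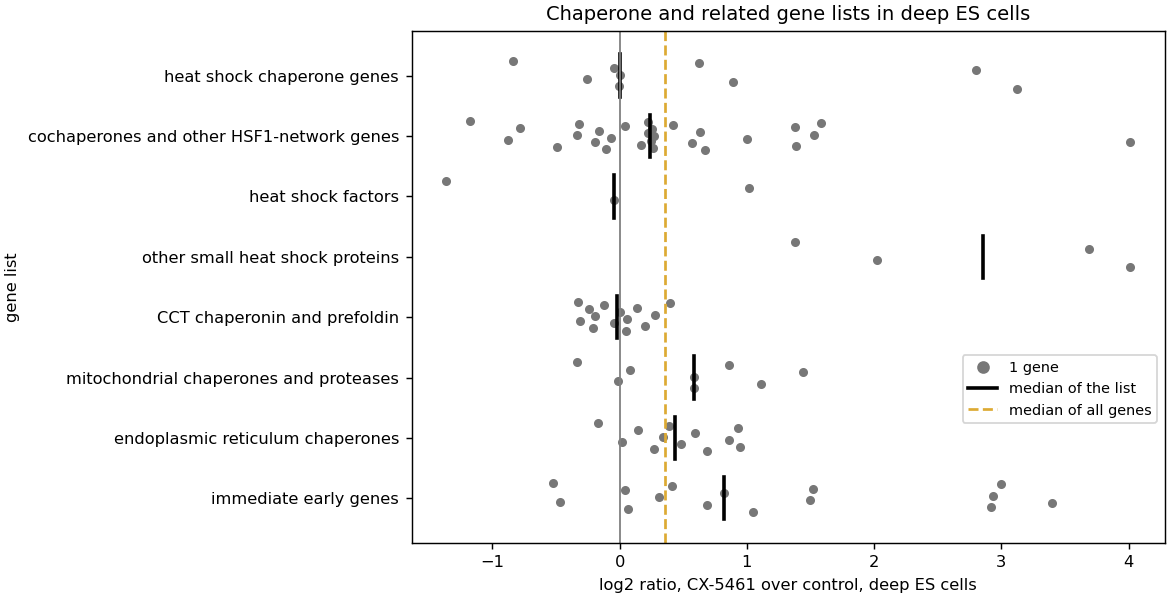
Log2 ratio of CX-5461 over control in deep ES cells for each gene with at least 200 UMIs of the heat shock chaperone genes and 7 other lists; grey points are genes, black bars list medians and the dashed line the median of all genes (0.36). The 4 genes of the list of other small heat shock proteins all lie above 1.3, and the CCT and prefoldin genes lie within 0.4 of 0.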

How the data were processed

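Single-cell RNA-seq was analysed for control and CX-5461 mES cells. The authors deposited raw counts of UMIs per gene and barcode, without normalization, in 1 table per condition, with a column of counts shared between genes; the methods name 10x Genomics 3' V2 libraries, a published droplet pipeline (HISAT2 is named for repeat sequences only, and the aligner behind the gene counts is not given in the sources used here), and the submitters' processing notes name Seurat 2.3.4 and mm10. There were 3838 barcodes with 49610287 UMIs for the control and 4922 barcodes with 69841836 UMIs for CX-5461, and 0 columns went unused. Barcodes are numbered within a table, so cells shared by both could not be counted.

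The filter of the methods (500 UMIs or more, mitochondrial share up to 0.2) kept 3767 and 4697 cells. They were clustered with scanpy 1.11.5 without the 10 genes (genes in at least 3 cells, 10000 UMIs per cell, 2000 variable genes, 16 components, 15 neighbours, Leiden resolution 0.5). A cluster was named fibroblast-like or 2C-like from at least 3 markers among its 50 leading genes, and ES-like where the summed ES markers reached 0.5 of the level over the whole data; clusters under 0.333 of their library's median depth stayed unnamed. No doublet caller was run; deep ES cells with a fibroblast marker UMI were left out as an alternative. The annotation release of the authors' counting is not given in the sources used here; GENCODE vM21 gave symbols and places for 54079 of 54146 identifiers.

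Levels are UMIs summed over the cells of a class per 1000000 UMIs of those cells. Exact intervals were Clopper-Pearson for shares, Poisson for levels and, for ratios, binomial given the summed UMIs. PCR and cell sampling are not covered. Counts and medians took in genes with 200 UMIs or more in sum. No p-value was computed with 1 library per condition. TMM factors came from edgeR 4.0.16. Pseudogenes were matched with blastn. The ratio, its interval and the 2-fold call were tested on simulated Poisson sums, and the other steps were not. Alternatives changed the scaling, pooling, class limits, gene minimum, fold, depth, counts marked as shared and the cell with most member UMIs. Members, gene lists and classes were chosen with earlier results of these data known. Genes of the other lists were named by rule: up to 5 at least 2-fold higher and 5 lower per list, or else the 2 most abundant; Hsf1, Dusp1, Gm8355, Gm15459 and Gm6210 were named after their values were seen.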

Additional observations from a re-analysis of the deposited data

Results flagged for a closer look

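The ratio of Hspb1 between CX-5461 and control went in opposite directions in different cells. Its log2 ratio was 0.62 in deep ES cells and 0.61 in high-mitochondrial cells, and -1.21 in feeders, with counting intervals that lay wholly on 1 side of 0 in each. There was 1 library per condition, so the difference between the cell classes was not tested.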

How the results depend on the processing

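The log2 ratio of Hspb1 in deep ES cells (0.62) was 0.22 with a TMM factor, 0.56 as a mean over cells and 0.56 in cells thinned to 3100 UMIs; that of Hsp25-ps1 (2.80) was 2.40 with TMM. The members' median in deep ES cells (0.01) was -0.39 with TMM, 0.12 with a minimum of 50 UMIs and 0.02 after thinning. In high-mitochondrial cells (-0.14) it was -0.54 with TMM and -0.27 after thinning, and changed sign to 0.13 with a minimum of 50 UMIs and 0.15 with barcodes over 0.2 mitochondrial included. In feeders (-0.08) it was -0.24 with TMM and -0.14 as a mean over cells. Of members, 4 were higher and 1 lower at 1.5-fold, 1 was lower with TMM and 1 of 8 higher after thinning. Thinning took Hspa1a below 200 UMIs, with 7 in the control and 107 in CX-5461, or 0.970 and 8.79 CPM. Further alternatives were chosen after seeing the data. Without mitochondrial UMIs in the totals, Hspb1 was at 0.65 and the deep ES median at 0.037. Without deep ES cells holding a fibroblast marker UMI, Hspb1 was at 0.65. Without clusters led in part by a keratinocyte marker, Hspb1 was at 0.72, Hsp25-ps1 at 2.90 and the median at 0.14. With pseudogenes added to their parents, Hspb1 was at 0.78, and in high-mitochondrial cells both Hspa8 and the median changed sign to 0.45. The cause of these shifts was not tested. The other 65 values of these main results and 124 for single genes moved by less than their counting interval or, for counts, by less than 1.5 times, and 50 for single genes moved by more. Near 0, signs were not stable: Hsph1 in deep ES cells (-0.05) was 0.04 after thinning, and Hspe1 in feeders (0.05) was -0.01 as a mean over cells. No paired analysis was possible because barcodes carry no sample number. With 1 library per condition, depth limits Hspa1a and Hspa1b most, and no replicate spread is known.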
